A study of Mus musculus with 10 samples.

Results

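Amino acid transporter genes of 6 solute carrier families, SLC1, SLC3, SLC7, SLC36, SLC38 and SLC43, were followed in tumours and adjacent colon of mice with chemically induced colorectal cancer. The members are the 42 of 24525 genes in the deposited table whose symbols begin with Slc1a, Slc3a, Slc7a, Slc36a, Slc38a or Slc43a and end in a number. The samples were 5 CRC-tumor and 5 Adjacent-normal tissues, called tumours and adjacent samples here and numbered 1 to 5 as in the titles. All came from male C57BL/6 mice, 7 weeks old at the start, given 1 injection of azoxymethane (AOM), a mutagen, at 12.5 mg/kg. Then came 3 cycles with 2% dextran sulfate sodium (DSS), a sulfated polysaccharide toxic to colonic epithelium, in the water for 5 days and plain water for 16 days, and tissue was taken 10 weeks after AOM. Adjacent samples therefore carried the same AOM and DSS exposure as tumours, and none of the 10 libraries is given as untreated tissue. The series text speaks of matched tissues of several mice, but the labels name 1 mouse as the source of every library. The labels thus leave unclear which libraries come from a common animal. The p-values therefore reflect the spread among these libraries only, and part of it may be technical.

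Amino acids cross membranes largely through carriers, and different carriers serve the gut lumen, the blood side of the cell and the lysosome. Some SLC7 proteins, the light chains, reach the surface only when bound to an SLC3 heavy chain: Slc3a1 (rBAT) carries Slc7a9 to the luminal brush border, and Slc3a2 (4F2hc, or CD98) carries several others, mostly to the basolateral side of epithelia. SLC1, SLC36 and SLC38 carriers use sodium or proton gradients or exchange one amino acid for another, and SLC43 proteins are facilitators. In dividing cells Slc7a5, Slc1a5 and Slc7a11 are known for the uptake of essential amino acids, glutamine and cystine.

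Promoter sequences are shown for 3 genes: Slc7a11 and Slc1a4, which rose in tumours, and Slc3a1, which fell. Slc7a11 and Slc1a4 hold the core of the amino acid response element bound by ATF4 and C/EBP proteins (searched as TGATGNAA on both strands). Slc3a1 holds the core bound by the epithelial factor HNF4 (searched as CAAAGTCCA on both strands). Capitals mark these matches. Each window runs 5′ to 3′ on the gene's strand from 250 bases before to 50 after the RefSeq start, in GRCm38.p6: Slc7a11 at chr3:50443564-50443863 (minus strand), Slc1a4 at chr11:20332664-20332963 (minus strand) and Slc3a1 at chr17:85028097-85028396 (plus strand).
Slc7a11: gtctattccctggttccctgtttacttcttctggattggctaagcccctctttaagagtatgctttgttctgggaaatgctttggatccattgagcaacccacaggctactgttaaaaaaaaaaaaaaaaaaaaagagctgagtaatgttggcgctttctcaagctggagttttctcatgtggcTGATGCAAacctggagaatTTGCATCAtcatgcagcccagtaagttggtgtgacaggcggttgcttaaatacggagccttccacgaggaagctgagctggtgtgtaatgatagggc
Slc1a4: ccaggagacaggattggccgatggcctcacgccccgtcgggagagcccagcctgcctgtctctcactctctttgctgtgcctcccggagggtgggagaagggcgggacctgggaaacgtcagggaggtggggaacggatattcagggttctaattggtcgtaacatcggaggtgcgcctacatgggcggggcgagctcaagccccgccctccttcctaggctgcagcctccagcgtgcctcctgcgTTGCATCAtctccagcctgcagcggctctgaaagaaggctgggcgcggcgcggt
Slc3a1: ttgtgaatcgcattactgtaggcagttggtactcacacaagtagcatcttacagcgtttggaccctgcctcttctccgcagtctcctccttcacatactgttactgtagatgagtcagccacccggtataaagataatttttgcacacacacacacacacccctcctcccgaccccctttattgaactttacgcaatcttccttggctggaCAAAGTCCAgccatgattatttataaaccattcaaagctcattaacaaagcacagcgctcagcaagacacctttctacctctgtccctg

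The Slc7a11 window holds the amino acid response core beginning at both 66 and 47 bases before the start, facing opposite ways. In the Slc1a4 window it begins 4 bases before the start and runs across the start. Slc7a7, whose change did not pass the test, holds the core too, in 2 of its windows. Over all 32817 promoter windows searched, 3.97% held this core and 0.475% the HNF4 core. Among the 26 transporter genes tested for a change, 20 had a window, and 3 of these genes held the amino acid response core and 1 the HNF4 core. The core of the antioxidant response element (TGACNNNGC) was in windows of 5 of the 20 genes, Slc7a1, Slc7a6, Slc36a1, Slc38a2 and Slc43a1, against 12.4% of all windows. The E-box CACGTG was in those of 3, Slc36a1, Slc38a7 and Slc43a1, against 7.15%, and the TCF/LEF core ATCAAAG in those of 3, Slc7a1, Slc38a9 and Slc38a10, against 3.73%. The motif of HNF1, another epithelial factor, was in windows of 0 of the 20 genes and in 0.0579% of all windows. All motifs were searched on both strands. A gene with several windows counts once, so the 2 kinds of share are not on the same footing. The motifs were chosen after the expression values were known, and a match is a string in a window, not a site shown to be bound.

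Levels are in FPKM (fragment counts scaled by transcript length and library size) as the authors deposited them. Tests used limma on log2(FPKM + 1) over the 13016 genes that averaged 1 FPKM or more, two-sided, with Benjamini-Hochberg adjustment over those genes and a threshold of 0.05. A gene rose or fell only where it passed. All log2 changes are tumour minus adjacent on this scale, which understates the change of low genes, and their errors are standard errors (SE). The median change over tested genes was 0.35 and 76.5% of tested genes passed. The fit was therefore repeated with each library's median subtracted, and the median change was then 0.02. Subtraction shifted every estimate down by the same amount. Its results are given where a named gene changed between passing and not passing, and for some other genes.

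Of the 42 transporter genes, 26 passed the expression filter. Among these, 19 rose, 4 fell and 3 did not pass the test, or 73.1% higher and 15.4% lower, against 57.2% higher and 19.3% lower over all tested genes. With medians subtracted 14 rose and 6 fell, or 53.8% and 23.1%, against 34.5% and 33.3% over all tested genes, 67.7% in either direction. With quantile normalization 13 of the 26 rose and 5 fell (19.2%), against 36.6% and 30.2%. The median log2 change of the 26 was 0.63, against 0.35 over all tested genes. With FPKM as deposited, a change of at least 1 on the log2 scale was reached by 9 that rose and 4 that fell. These were 34.6% and 15.4%, against 16.2% and 7.09% over all tested genes. All 5 tumours lay above all 5 adjacent samples in 16 of the 26 genes, or 61.5%, against 46.5% over all tested genes, and below them in 4, or 15.4%, against 14.3%. The genes that fell were Slc3a1, Slc7a9, Slc1a1 and Slc36a1. They include both subunits of the luminal cystine and dibasic amino acid carrier, the main intestinal glutamate carrier and the proton-coupled carrier Slc36a1. The genes that rose by at least 1 with FPKM as deposited were Slc7a11, Slc38a4, Slc7a8, Slc7a5, Slc43a2, Slc7a2, Slc7a6, Slc1a4 and Slc43a3. With medians subtracted Slc7a2 was at 0.98, Slc7a6 at 0.83, Slc1a4 at 0.80 and Slc43a3 at 0.68, all below 1.

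**Figure D1:**
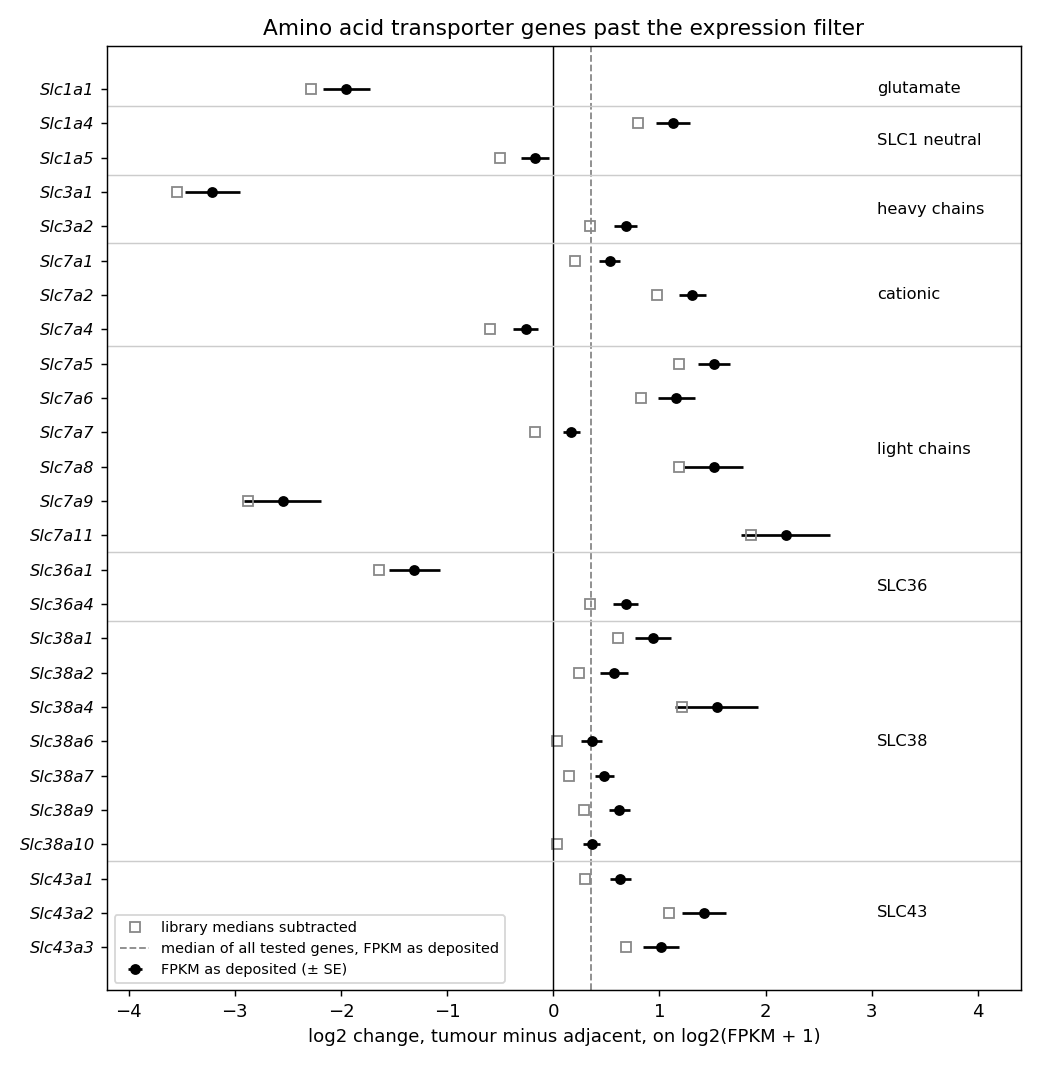
Log2 change (x axis, tumour minus adjacent on log2(FPKM + 1)) of the 26 transporter genes past the expression filter, grouped by role. Filled points with bars are estimates ± SE from FPKM as deposited, open squares are estimates with each library's median subtracted, and the dashed line is the median of all tested genes at 0.35. Slc3a1, Slc7a9, Slc1a1 and Slc36a1 lie far to the left, while the SLC43 and tested SLC38 genes lie to the right of 0 with FPKM as deposited; Slc38a6 is at -0.15 with quantile normalization, which is not plotted.

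The heavy chains moved in opposite directions. Slc3a1 (rBAT; chromosome 17, 85028376 to 85064236, GRCm38), the partner of Slc7a9, had 0.13, 1.31, 0.53, 0.53 and 0.37 FPKM in tumours 1 to 5, against 17.56, 7.94, 12.18, 21.04 and 10.89 FPKM in adjacent samples 1 to 5. The highest tumour, tumour 2, was below the lowest adjacent sample, and the log2 change was -3.21 (SE 0.26; limma adjusted p = 1.4e-05), the largest fall among the tested transporter genes. Slc3a2 (4F2hc; chromosome 19, 8706882 to 8723369) had 47.08, 52.52, 65.24, 50 and 53.18 FPKM in tumours, against 35, 29.17, 33.01, 29.24 and 39.45 FPKM in adjacent samples. The groups did not overlap, and the log2 change was 0.68 (SE 0.11; limma adjusted p = 0.000205), or 0.35 with medians subtracted (adjusted p = 0.00658). The ratio of Slc3a2 to Slc3a1, both per length, was 40.1 to 362 in tumours and 1.39 to 3.67 in adjacent samples. The tumour ratios divide by Slc3a1 levels of only 0.13 to 1.31 FPKM and are imprecise. Slc3a1 overlaps Prepl on the other strand, with 26.5% of the Slc3a1 exonic bases shared, and the kit does not mark strand; Prepl was at 13.4 FPKM in tumours and 14.8 FPKM in adjacent samples (means).

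Of the 10 light chain genes, 6 passed the filter; Slc7a5, Slc7a6, Slc7a8 and Slc7a11 rose, Slc7a9 fell and Slc7a7 did not pass the test. Slc7a9 (b0,+AT; chromosome 7, 35448796 to 35466036), which with Slc3a1 takes up cystine and dibasic amino acids at the brush border, had 0.12, 0.97, 0.19, 1.35 and 0.54 FPKM in tumours, against 5.28, 6.52, 7.63, 6.01 and 22.16 FPKM in adjacent samples. No tumour reached an adjacent sample, and adjacent sample 5 stood well above the other 4. The log2 change was -2.55 (SE 0.36; limma adjusted p = 0.000107), and -2.22 without adjacent sample 5 (adjusted p = 4.91e-05). Slc3a1 and Slc7a9 did not rank the adjacent samples alike: adjacent sample 5 was highest for Slc7a9 and second lowest for Slc3a1. The ratio of Slc7a9 to Slc3a1 was 0.358 to 2.55 in tumours and 0.286 to 2.03 in adjacent samples. Both genes were at 1.35 FPKM or less in every tumour, so the tumour ratios are imprecise.

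Slc7a5 (LAT1; chromosome 8, 121881150 to 121907694), the exchanger of large neutral amino acids such as leucine, had 22.33, 23.61, 26.41, 19.48 and 28.40 FPKM in tumours, against 9.33, 5.85, 9.28, 5.86 and 9.26 FPKM in adjacent samples. Every tumour had at least 2-fold the highest adjacent level, and the log2 change was 1.51 (SE 0.15; limma adjusted p = 2.37e-05). Slc7a8 (LAT2; chromosome 14, 54722209 to 54781946), a related exchanger of broader neutral specificity, had 18.83, 19.55, 17.08, 14.86 and 11.16 FPKM in tumours, against 6.74, 2.75, 5.74, 2.82 and 9.12 FPKM in adjacent samples. Tumour 5 and adjacent sample 5 lay close together, and the log2 change was 1.51 (SE 0.28; limma adjusted p = 0.00065). Slc7a6 (y+LAT2; chromosome 8, 106168857 to 106198706), an exchanger of cationic for neutral amino acids, had 14.16, 9.57, 13.22, 10.33 and 16.33 FPKM in tumours, against 5.97, 3.85, 6.28, 4.00 and 5.51 FPKM in adjacent samples. Its groups did not overlap, and the change was 1.16 on the log2 scale (SE 0.17; limma adjusted p = 0.00011).

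Slc7a11 (xCT; chromosome 3, 49892526 to 50443614), which exchanges cystine for glutamate and supplies cysteine for glutathione, had 7.80, 4.65, 30.98, 6.70 and 13.93 FPKM in tumours, against 1.71, 0.78, 2.19, 0.98 and 2.07 FPKM in adjacent samples. All tumours were above all adjacent samples, but the tumours differed widely, with a mean of 12.8 ± 10.7 FPKM (SD, n = 5) and a median of 7.80, against 1.55 ± 0.637 FPKM (n = 5) in adjacent samples. Its log2 change of 2.19 (SE 0.42; limma adjusted p = 0.000802) was the largest rise among the tested transporter genes, and was 1.81 without tumour 3 (adjusted p = 0.000409). Slc7a7 (y+LAT1), which works at the basolateral side of the intestine and is mutated in human lysinuric protein intolerance, had 21.68 to 27.64 FPKM in tumours and 20.07 to 23.16 FPKM in adjacent samples. Its groups overlapped, and its log2 change of 0.17 (SE 0.08; limma adjusted p = 0.0724) turned to -0.17 with medians subtracted (adjusted p = 0.0762). The other light chains were below the filter: Slc7a10 and Slc7a13 were at 0.02 FPKM or less, Slc7a12 was listed at 0 in every library, and Slc7a15 had 0.22 to 0.87 FPKM in tumours and 0.17 to 0.68 FPKM in adjacent samples.

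**Figure D2:**
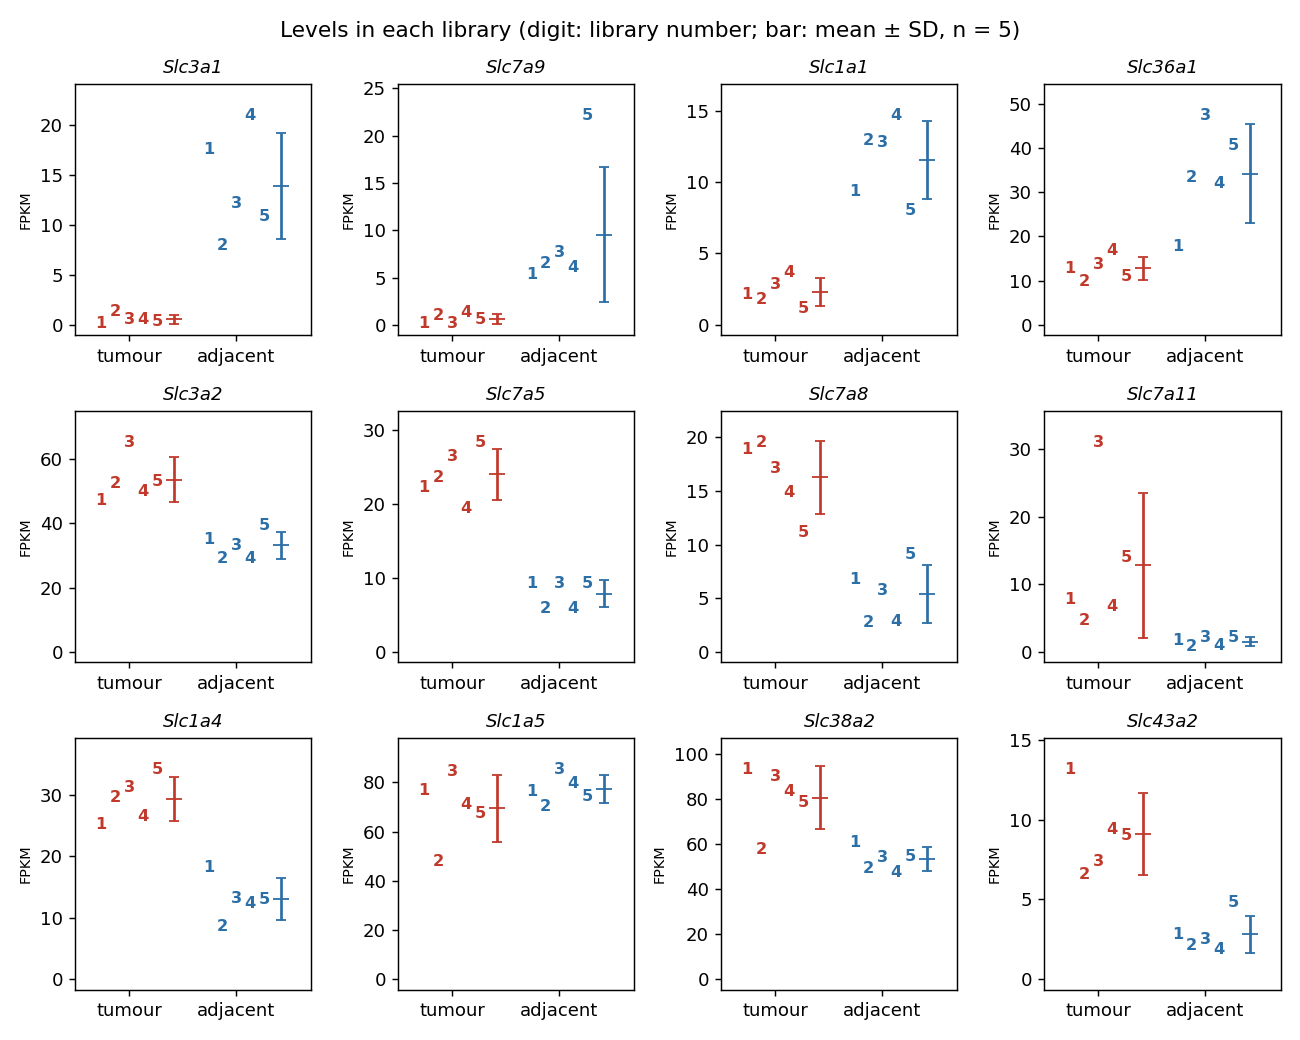
Levels in FPKM (y axis) of 12 transporter genes in each library, with tumours left and adjacent samples right; digits are library numbers and bars are mean ± SD (n = 5 per group). The groups overlap for Slc1a5 and Slc38a2, and tumour 3 stands above the other tumours for Slc7a11.

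The summed level of the 5 tested light chains that pair with Slc3a2 (Slc7a5, Slc7a6, Slc7a7, Slc7a8 and Slc7a11) was 78.36 to 111.66 FPKM in tumours and 33.30 to 48.37 FPKM in adjacent samples. Slc7a7 made up 21.5% to 34.4% of that sum in tumours and 46.3% to 60.7% in adjacent samples, where it was the most abundant of the 5 in every library. Slc7a5 made up 23.7% to 31.0% in tumours and 16.8% to 20.0% in adjacent samples, and Slc7a11 made up 5.47% to 27.7% in tumours and 2.34% to 4.72% in adjacent samples. In tumour 3 Slc7a11 was the most abundant of the 5. The ratio of this sum to Slc3a2 averaged 1.69 ± 0.104 in tumours and 1.26 ± 0.111 in adjacent samples (SD, n = 5 each) without overlap, so the light chain transcripts differed by more than the heavy chain between the groups. These sums and ratios are descriptions of transcripts and were not tested.

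**Figure D3:**
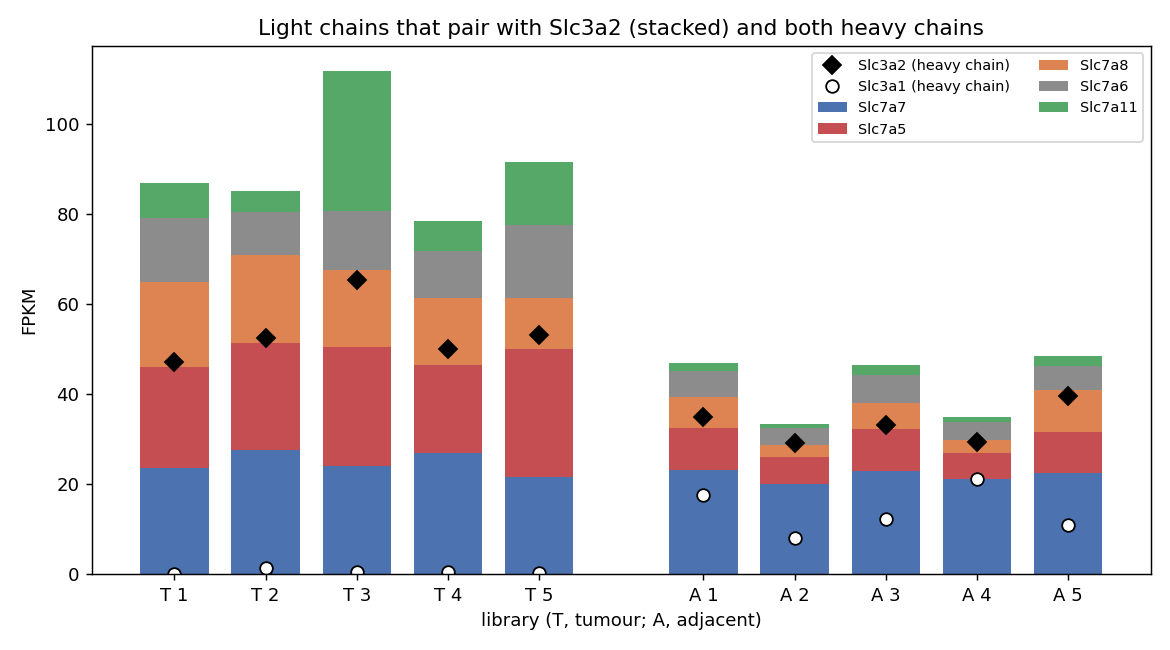
Stacked bars give FPKM (y axis) of the 5 tested light chains that pair with Slc3a2 in each library (x axis, tumours left), with filled diamonds for Slc3a2 and open circles for Slc3a1. The Slc7a7 segment is of similar height in all libraries, the other segments are taller in tumours, and Slc3a1 is near 0 in tumours.

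Of the 5 glutamate and aspartate carriers, Slc1a1 alone passed the filter, and it fell. Slc1a1 (EAAT3, or EAAC1; chromosome 19, 28835049 to 28913960), the glutamate carrier of intestinal and renal epithelium, had 2.15, 1.74, 2.81, 3.65 and 1.12 FPKM in tumours, against 9.33, 12.88, 12.77, 14.68 and 8.03 FPKM in adjacent samples. The highest tumour was below the lowest adjacent sample, and the change was -1.95 on the log2 scale (SE 0.22; limma adjusted p = 3.42e-05). Part of its exonic sequence, 31.9%, overlaps 4430402I18Rik on the other strand, which averaged 0.074 FPKM in tumours and 0.26 FPKM in adjacent samples. Slc1a7, best known from the retina, was below the filter at 0.54 to 1.58 FPKM in tumours and 0.03 to 0.25 FPKM in adjacent samples, which did not overlap. The glial carriers Slc1a2 and Slc1a3 and the Purkinje cell carrier Slc1a6 were at 0.22 FPKM or less in every library.

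The neutral exchangers Slc1a4 and Slc1a5 differed in what they did. Slc1a4 (ASCT1; chromosome 11, 20302180 to 20332713), which carries alanine, serine, cysteine and threonine, had 25.22, 29.59, 31.13, 26.37 and 34.10 FPKM in tumours, against 18.13, 8.63, 13.13, 12.38 and 13.01 FPKM in adjacent samples. All tumours were above all adjacent samples, and the change was 1.13 on the log2 scale (SE 0.16; limma adjusted p = 9.82e-05). Slc1a5 (ASCT2; chromosome 7, 16781340 to 16798274), the glutamine exchanger, had 76.88, 47.78, 84.27, 70.99 and 67.44 FPKM in tumours, against 76.28, 70.20, 85.30, 79.67 and 74.46 FPKM in adjacent samples. It was the most abundant of the 42 genes in adjacent samples, its groups overlapped, and its log2 change was -0.17 (SE 0.13; limma adjusted p = 0.259), and it fell by 0.50 with medians subtracted (adjusted p = 0.00387), while quantile normalization gave -0.16 (adjusted p = 0.319). The ratio of Slc1a4 to Slc1a5 was 0.328 to 0.619 in tumours and 0.123 to 0.238 in adjacent samples, without overlap; this ratio was not tested.

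Of the 5 cationic amino acid transporter genes, which form the branch of SLC7 that needs no heavy chain, Slc7a1 and Slc7a2 rose. Slc7a2 (CAT2; chromosome 8, 40862396 to 40922308), an arginine carrier known to be induced in activated macrophages, had 2.54, 2.18, 2.99, 2.26 and 3.32 FPKM in tumours, against 0.55, 0.46, 0.50, 0.19 and 0.69 FPKM in adjacent samples. Every tumour was above every adjacent sample, and the log2 change was 1.31 (SE 0.13; limma adjusted p = 2.13e-05). Slc7a1 (CAT1), the widely expressed arginine and lysine carrier, averaged 11.4 ± 0.989 FPKM in tumours and 7.64 ± 1.06 FPKM in adjacent samples (SD, n = 5 each). Its log2 change was 0.53 (SE 0.10; limma adjusted p = 0.000559), but 0.20 with medians subtracted (adjusted p = 0.0616). Slc7a4, whose substrate is not settled, averaged 5.00 ± 0.859 FPKM in tumours and 6.18 ± 0.718 FPKM in adjacent samples; its log2 change was -0.26 (limma adjusted p = 0.0567), and it fell by 0.60 with medians subtracted (adjusted p = 0.00045). Slc7a3 and the lysosomal protein gene Slc7a14 were below the filter, Slc7a3 at 0.13 to 0.62 FPKM in tumours and 0.07 to 0.19 FPKM in adjacent samples, and Slc7a14 at 0.62 to 1.02 FPKM in tumours and 0.58 to 0.69 FPKM in adjacent samples.

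The proton-coupled SLC36 carriers split. Slc36a1 (PAT1; chromosome 11, 55204350 to 55236330), which moves glycine, alanine and proline with protons at the brush border and out of lysosomes, had 12.67, 9.82, 13.64, 16.77 and 10.87 FPKM in tumours, against 17.66, 33.40, 47.43, 31.92 and 40.59 FPKM in adjacent samples. The groups came within 1 FPKM of each other, between tumour 4 and adjacent sample 1, and the log2 change was -1.31 (SE 0.24; limma adjusted p = 0.000535), or -1.52 without adjacent sample 1. Slc36a1 had rank 11 among the 42 genes by level in tumours and rank 3 in adjacent samples. Slc36a4, a carrier of proline and tryptophan, rose to 3.94 ± 0.542 FPKM in tumours, against 2.09 ± 0.485 FPKM in adjacent samples (SD, n = 5 each), a log2 change of 0.68 (limma adjusted p = 0.00047) that was 0.17 with quantile normalization (adjusted p = 0.235). Slc36a2, the neighbour of Slc36a1 on chromosome 11, was just below the filter with a mean of 0.87 FPKM over all libraries, at 0.73 to 2.75 FPKM in tumours and 0.13 to 0.71 FPKM in adjacent samples. Slc36a3, also in that cluster, was at 0.07 FPKM or less.

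All 7 of the SLC38 genes past the filter rose with FPKM as deposited, where 57.2% of all tested genes rose. Only Slc38a1, Slc38a4 and Slc38a9 also rose with medians subtracted, where 34.5% of all tested genes rose. Slc38a6 was at -0.15 with quantile normalization (limma adjusted p = 0.147). Slc38a2 (SNAT2; chromosome 15, 96687392 to 96699730), a sodium-coupled carrier of small neutral amino acids known to be induced by amino acid starvation, had 93.30, 57.78, 90.06, 83.69 and 78.44 FPKM in tumours, against 60.94, 49.35, 54.27, 47.54 and 54.64 FPKM in adjacent samples. It was the most abundant of the 42 genes in tumours, and tumour 2 lay below adjacent sample 1. The log2 change was 0.57 (SE 0.13; limma adjusted p = 0.00178), or 0.24 with medians subtracted (adjusted p = 0.0665). Slc38a10, a less studied member of the family, had 38.40, 39.00, 46.97, 37.74 and 45.21 FPKM in tumours, against 31.72, 29.43, 32.77, 30.32 and 35.78 FPKM in adjacent samples. Its groups did not overlap, but its log2 change of 0.36 (SE 0.08; limma adjusted p = 0.00221) was close to that of the median tested gene and was 0.03 with medians subtracted (adjusted p = 0.723).

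Slc38a4 (SNAT4; chromosome 15, 96994820 to 97055956), a system A carrier best known from liver and placenta, had 3.51, 16.16, 11.25, 9.75 and 4.99 FPKM in tumours, against 4.95, 1.10, 2.35, 1.55 and 1.78 FPKM in adjacent samples. Tumour 1 lay below adjacent sample 1, while the other 4 tumours were above every adjacent sample. The log2 change was 1.54 (SE 0.39; limma adjusted p = 0.00434). Among the 26 tested transporters it varied most across the tumours after Slc7a11, Slc7a9 and Slc3a1, with a coefficient of variation of 55.6%. Slc38a1 (SNAT1), the glutamine carrier next to Slc38a2 on chromosome 15, averaged 30.8 ± 5.56 FPKM in tumours and 15.7 ± 4.06 FPKM in adjacent samples (SD, n = 5 each), a log2 change of 0.94 (limma adjusted p = 0.000518). Slc38a9, the lysosomal arginine sensor of mTORC1, averaged 2.45 ± 0.293 FPKM in tumours and 1.25 ± 0.192 FPKM in adjacent samples, a log2 change of 0.62 (limma adjusted p = 0.000248) that came to 0.29 with medians subtracted and 0.14 after quantile normalization (adjusted p = 0.26). The lysosomal glutamine exporter gene Slc38a7 and Slc38a6 had log2 changes of 0.48 and 0.36, and of 0.15 and 0.03 with medians subtracted. Slc38a11 was below the filter at 0.30 to 0.54 FPKM in tumours and 0.84 to 1.38 FPKM in adjacent samples, Slc38a3 was at 0.33 FPKM or less, Slc38a5 at 0.06 FPKM or less, and Slc38a8 was listed at 0 throughout.

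All 3 SLC43 genes rose, also with medians subtracted, against 57.2% and 34.5% of all tested genes. Slc43a2 (LAT4; chromosome 11, 75531694 to 75577575), a facilitator of branched-chain amino acids, phenylalanine and methionine on the basolateral side of epithelia, had 13.14, 6.54, 7.38, 9.40 and 9.02 FPKM in tumours, against 2.81, 2.12, 2.49, 1.83 and 4.80 FPKM in adjacent samples. The groups did not overlap, and the change was 1.42 on the log2 scale (SE 0.21; limma adjusted p = 0.000155). Slc43a3 (chromosome 2, 84936579 to 84958509), which carries purine nucleobases rather than amino acids, had 8.92, 14.88, 9.02, 12.13 and 9.92 FPKM in tumours, against 5.69, 3.71, 6.03, 3.58 and 5.73 FPKM in adjacent samples. Its groups did not overlap either, and the change was 1.01 on the log2 scale (SE 0.17; limma adjusted p = 0.000334). Slc43a1 (LAT3), its neighbour on chromosome 2, averaged 3.53 ± 0.533 FPKM in tumours and 1.90 ± 0.188 FPKM in adjacent samples (SD, n = 5 each), a log2 change of 0.63 that was 0.12 with quantile normalization (adjusted p = 0.268).

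Summed over the 42 genes, transporter transcripts came to 430.9 to 556.1 FPKM in tumours and 327.7 to 413.5 FPKM in adjacent samples. These sums are of FPKM as deposited, where the median log2 change over all tested genes was 0.35, and were not tested. In tumours the order began with Slc38a2 at 80.7 ± 14.0 FPKM, Slc1a5 at 69.5 ± 13.7 FPKM and Slc3a2 at 53.6 ± 6.93 FPKM (SD, n = 5). Slc38a2 was above Slc1a5 in every tumour, although the ranges of these genes overlapped, and the order was not tested. In adjacent samples the order began with Slc1a5 at 77.2 ± 5.68 FPKM and Slc38a2 at 53.3 ± 5.24 FPKM. Slc36a1 at 34.2 ± 11.1, Slc3a2 at 33.2 ± 4.31 and Slc38a10 at 32.0 ± 2.47 FPKM followed, and their order varied between libraries. Among the 19 genes that rose, tumour 2 was the lowest tumour for 8 and tumour 1 for 6, and adjacent sample 2 was the lowest adjacent sample for 12. Among the 4 that fell, tumour 4 was the highest tumour for 3, Slc7a9, Slc1a1 and Slc36a1, and tumour 2 for Slc3a1. Without tumours 2 and 4 the counts were again 19 and 4.

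Markers of several cell types also differed between the groups, and their part in these results was not tested. The 5 absorptive colonocyte markers, all of which fell, summed to 59.2 to 769 FPKM in tumours and 2100 to 3270 FPKM in adjacent samples, with tumours 2 and 4 the highest tumours at 769 and 362 FPKM; none was at 0 in all libraries. All 5 goblet cell markers fell, with sums of 493 to 2570 FPKM in tumours and 11400 to 15700 FPKM in adjacent samples. All 5 fibroblast markers rose, at 566 to 954 FPKM in tumours and 73.5 to 189 FPKM in adjacent samples. So did all 5 macrophage markers, at 130 to 231 FPKM in tumours and 22.0 to 70.8 FPKM in adjacent samples, and all 5 endothelial markers, at 66.8 to 101 FPKM in tumours and 20.4 to 41.2 FPKM in adjacent samples. All 5 neutrophil markers rose, at 116 to 444 FPKM in tumours and 11.1 to 142 FPKM in adjacent samples, and all 5 enteroendocrine markers fell, at 5.29 to 77.6 FPKM in tumours and 362 to 1360 FPKM in adjacent samples. Adjacent sample 5, the highest for Slc7a9, also had the highest adjacent sums of neutrophil markers, 142 FPKM, and of enteroendocrine markers, 1360 FPKM, while the other 4 adjacent samples had 362 to 491 FPKM of the enteroendocrine markers. Summed markers of smooth muscle, T cells, B and plasma cells, tuft cells and enteric glia and neurons were at 36.4 to 67.9, 5.39 to 19.3, 29.7 to 488, 22.0 to 83.1 and 2.29 to 4.46 FPKM in tumours, against 12.0 to 49.2, 3.77 to 7.48, 119 to 406, 10.7 to 13.5 and 2.49 to 6.71 FPKM in adjacent samples. Of the tested markers among these, 1 of smooth muscle rose, 2 of B and plasma cells fell, and of the 3 of tuft cells 1 rose and 2 fell, so the tuft cell sum does not stand for each marker. In tissue of mixed cells, fewer cells of a type and less RNA per cell cannot be told apart.

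The 6 lists of related genes were read beside the transporters. Over all tested genes 57.2% were higher and 19.3% lower, or 34.5% and 33.3% with medians subtracted. Of 12 tested amino acid and peptide carriers of other families and their partners, 5 rose and 5 fell, or 3 and 5 with medians subtracted. Slc15a1 (PEPT1), the brush border carrier of small peptides, had 0.93, 2.70, 1.39, 6.73 and 1.29 FPKM in tumours, against 27.99, 77.82, 45.34, 40.77 and 47.47 FPKM in adjacent samples (log2 change -3.89, SE 0.38; limma adjusted p = 2.28e-05). Slc6a14, a luminal carrier of neutral and cationic amino acids, had 8.06, 15.90, 9.92, 30.23 and 6.28 FPKM in tumours, against 160.92, 164.95, 162.53, 189.47 and 138.77 FPKM in adjacent samples (log2 change -3.65, SE 0.34; limma adjusted p = 2.01e-05). For both genes tumour 4 was the highest tumour and the groups were far apart. Slc15a3, a lysosomal peptide and histidine carrier of myeloid cells, rose by 2.16 (SE 0.22), and Slc16a10 (TAT1), a basolateral carrier of aromatic amino acids, by 1.18 (SE 0.24).

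Of 19 tested genes of the amino acid response, 11 rose and 3 fell, or 8 and 4 with medians subtracted. With FPKM as deposited these shares were close to those over all tested genes. The serine synthesis enzymes Phgdh and Psat1 rose by 1.90 (SE 0.23) and 1.43 (SE 0.14), while Stc2, a secreted glycoprotein, fell by 1.17 (SE 0.21) and Nupr1, a stress-induced nuclear protein, fell by 0.78 (SE 0.26). Atf4 itself, the transcription factor of this response, averaged 106 ± 7.23 FPKM in tumours and 92.1 ± 16.3 FPKM in adjacent samples (SD, n = 5 each; limma adjusted p = 0.109), and asparagine synthetase, Asns, averaged 22.7 ± 7.35 FPKM in tumours and 19.5 ± 4.55 FPKM in adjacent samples (adjusted p = 0.389). With medians subtracted their log2 changes were -0.11 and -0.14, against 0.22 and 0.19 with FPKM as deposited; both were singled out after their values were seen. Of 26 tested genes of amino acid sensing by mTORC1, 14 rose and 2 fell, but 4 rose and 11 fell with medians subtracted. Without tumour 2, 3 or 5 or adjacent sample 1 or 3, 1 of these genes fell. Nprl3, of the inhibitory GATOR1 complex, rose by 0.78 (SE 0.10) and Sesn3, a sestrin, by 0.74 (SE 0.15), or 0.31 with quantile normalization (limma adjusted p = 0.0531), while Fnip2, a folliculin partner, fell by 0.38 (SE 0.10) and Lamtor2, of the lysosomal Ragulator scaffold, fell by 0.21 (SE 0.08; limma adjusted p = 0.0351). Lamtor2 no longer passed without tumour 2, 3 or 5 or without adjacent sample 1, 3 or 4 (adjusted p = 0.0654 to 0.0837).

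Of 16 tested genes of glutamine, glutamate and proline enzymes, 9 rose and 4 fell, or 6 and 6 with medians subtracted. The glutaminase gene Gls2 rose by 1.63 (SE 0.36) and Pycr1, of proline synthesis, by 1.25 (SE 0.30), although Pycr1 overlapped between the groups. Gfpt1, which uses glutamine to make hexosamine, fell by 2.18 (SE 0.22), and Gpt, alanine transaminase, fell by 1.75 (SE 0.23). Of 13 tested genes of cysteine and glutathione enzymes, 5 rose and 4 fell, or 2 and 5 with medians subtracted. Cdo1, which oxidizes cysteine, rose by 1.19 (SE 0.19) and Gsr, glutathione reductase, by 0.68 (SE 0.12). Cth, which makes cysteine from cystathionine, fell by 1.93 (SE 0.15; limma adjusted p = 1.33e-05), and Ggt6, of the gamma-glutamyltransferase family, fell by 1.78 (SE 0.17). Of 12 tested genes of branched-chain, arginine and tryptophan enzymes, 6 rose and 0 fell by limma, also 0 at an unadjusted p under 0.05; with medians subtracted 1 rose and 2 fell, and without tumour 2, 1 fell. Arginase 1, Arg1, rose by 2.09 (SE 0.42), and by 1.76 with medians subtracted (limma adjusted p = 0.00335). Ornithine decarboxylase, Odc1, rose by 0.53 (SE 0.12), but had 0.20 with medians subtracted (adjusted p = 0.167). The changes of these lists and of the transporters were not tested against each other.

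**Figure D4:**
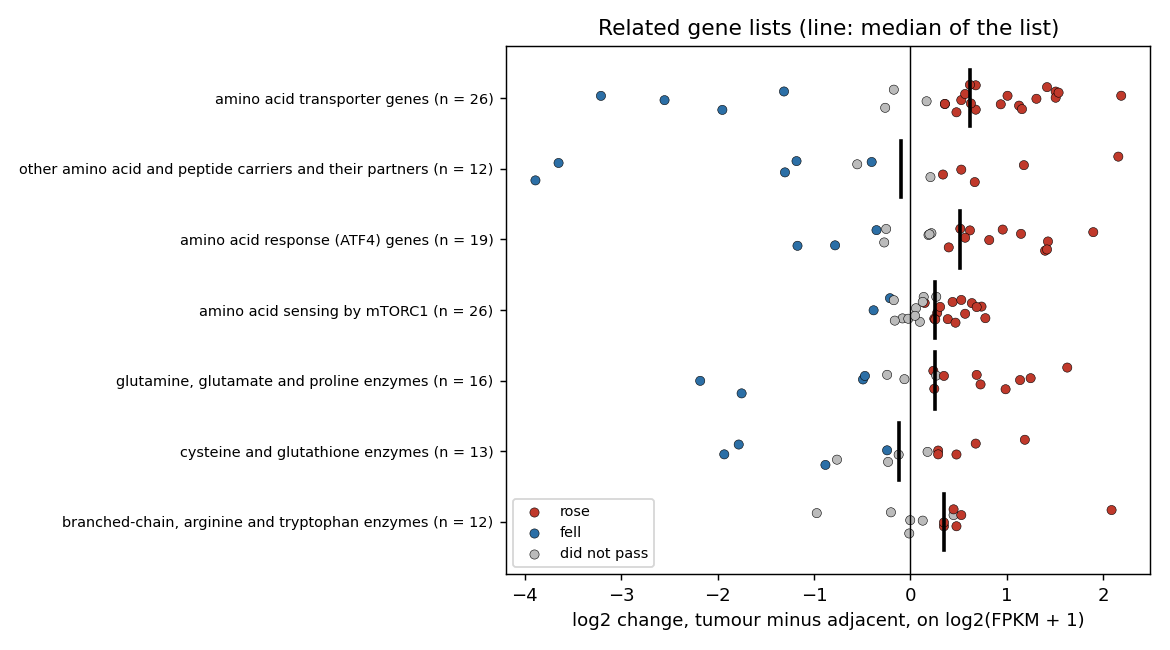
Log2 change (x axis, tumour minus adjacent on log2(FPKM + 1)) of each tested gene in the transporter set and in 6 related lists, coloured by whether it rose, fell or did not pass, with a line at the median of each list. The transporter set has its median at 0.63, and the list medians run from -0.12 to 0.52.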

How the data were processed

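Polyadenylated RNA of 10 colon samples was made into libraries with the TruSeq RNA v2 kit and sequenced on an Illumina HiSeq, per the labels' protocols. The authors deposited FPKM per gene; among the programs in the submitters' processing notes are Cufflinks 2.2.1, TopHat2 2.1.0 and RSEM 1.2.15, with the build mm10. The sources used here do not say which program made the table. The table holds 24525 genes after 1 line of text was left out, 4792 of them at 0 in every library, with library totals of 462009 to 484712 FPKM and 11981 to 13171 genes per library at 1 FPKM or more. No depth is stated, and low values did not give whole reads for nearly all genes (at best 67.1% to 77.0% of 52 to 80 low values per library lay within 0.2 of a whole number), so no count test or counting interval was computed. At least 17741 genes differed between any pair of libraries.

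The fit was limma 3.58.1 in R 4.3.3 on log2(FPKM + 1) and compared the 2 groups without covariates (trend and robust options on) over genes averaging 1 FPKM or more. It was tested on simulated data. Alternatives were other pseudocounts, filters, scalings and variance models, the replicate number as a block, and leaving out libraries. Coordinates and exon overlaps are from GENCODE M21 (GRCm38), where all 42 symbols matched, and promoter windows from RefSeq (GRCm38.p6; those on chromosome 18 were not searched). The transporters and gene lists were chosen with earlier results of these data known. Values per library are given for transporters that passed with a log2 change of at least 1, the 5 most abundant, both heavy chains and Slc7a11, and from each list up to 2 genes with the largest rise and fall are named.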

Additional observations from a re-analysis of the deposited data

Results flagged for a closer look

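A sample far from the other 4 of its group was found in 4 of the 52 group-and-gene combinations examined for the 26 tested transporters, where chance gives about 1 in 20. Slc7a9 was at 22.16 FPKM in adjacent sample 5. Slc7a1 was at 9.66 FPKM in tumour 4, the lowest tumour. Slc36a4 was at 4.88 FPKM in tumour 3, the highest tumour, and Slc38a7 at 10.76 FPKM in tumour 1, the highest tumour. Each of these 4 genes except Slc7a9 had its distant value in a tumour, and each kept its direction and its side of the threshold without any one library.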

How the results depend on the processing

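All 26 tested transporters kept their direction and their side of the threshold with a pseudocount of 0.1 or 5, with no filter, without trend and robust fitting, with the replicate block, without tumours 2 and 4, and without any one library, except that Slc7a4 also fell without tumour 5 or adjacent sample 4 and Slc7a7 also rose without tumour 5. Scaling changed more: the log2 change of Slc7a7 turned to -0.17 with medians subtracted and -0.04 with quantile normalization, and that of Slc38a6 to -0.15 with quantile normalization. Among the 24 genes named from the related lists, Atf4 turned to -0.11 and Asns to -0.14 with medians subtracted, and Asns to -0.04 with quantile normalization; none of these passed the test. With medians subtracted Slc38a10, Slc38a2, Slc38a6, Slc38a7 and Slc7a1 no longer passed and Slc1a5 and Slc7a4 fell; with quantile normalization Slc36a4, Slc38a6, Slc38a7, Slc38a9, Slc43a1 and Slc7a1 no longer passed and Slc7a4 fell. Leaving out libraries gave 19 to 20 transporters higher and 4 to 5 lower. Over all genes 7442 were higher and 2509 lower, against 4486 and 4329 with medians subtracted, 4759 and 3934 with quantile normalization, and 7051 to 7583 and 2321 to 2609 without libraries. With medians subtracted 3 other carriers, 4 mTORC1 genes, 2 cysteine and glutathione genes and 1 branched-chain, arginine and tryptophan gene were higher, and 11 mTORC1 genes and 2 branched-chain, arginine and tryptophan genes lower. With quantile normalization 4 mTORC1 genes and 3 cysteine and glutathione genes were higher, and 9 mTORC1 genes and 1 branched-chain, arginine and tryptophan gene lower. With a mean of at least 5 FPKM required, 3 other carriers were lower. Without libraries, 1 to 3 mTORC1 genes, 3 to 6 cysteine and glutathione genes and 0 to 1 branched-chain, arginine and tryptophan genes were lower.

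The titles give both groups the numbers 1 to 5. Deviations of like-numbered samples from their group means correlated at 0.0223 to 0.422, over 0.1 in 3 of 5 pairs. Of the 5 tumours, 2 correlated best with their own number. These values cannot settle whether like-numbered samples share an animal. The main fit did not take the numbers as pairs, and the replicate block was an alternative. With the replicate block 19 transporters rose and 4 fell, as without it. Genes below 1 FPKM rest on few fragments, and no counting error could be given for them.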
